A study of Rattus norvegicus with 6 samples.

Results

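The genes described here are 10 negative regulators of MAP kinase signalling, most of them acting on ERK or upstream of it. The dual-specificity phosphatase genes are Dusp1, Dusp4, Dusp5, Dusp6 and Dusp10. The Sprouty genes are Spry1, Spry2 and Spry4, and the Spred genes are Spred1 and Spred2. All 10 genes were taken by gene name from a table of 19289 rat features, in which each was matched by 1 row. All 10 had a mean of at least 1 FPKM (fragments per kilobase of transcript, scaled to the library total) over the libraries, the level above which 12460 features were tested. The libraries came from INS-1E cells, an insulin-secreting rat beta cell line derived from an insulinoma: 3 from cells treated with uric acid (UA) for 24 hours and 3 from untreated cells. No concentration of uric acid, no vehicle and no culture time of the untreated cells is named in the labels. Whether the replicates come from different cultures is not stated either, so the spread behind each p-value may be technical.

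ERK is the last kinase of a chain that runs from growth factor receptors through RAS, RAF and MEK, and its activity is held in check by genes that the pathway itself switches on. Dual-specificity phosphatases remove the activating phosphates from MAP kinases, each with its own preference for ERK, JNK or p38, while Sprouty and Spred proteins act further up, between the receptor and RAF. In beta cells, ERK is activated by glucose and by calcium entry, and it takes part in the control of insulin gene transcription.

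Summed estimated counts were 41191819 to 48875962 in the uric acid libraries and 47858248 to 59092982 in the untreated libraries, so the untreated libraries were deeper on average; the part of depth in the results was not tested. The cells carried the defining transcripts of beta cells in every library: all 8 markers, among them Ins1, Ins2, Pdx1, Mafa, Nkx6-1, Slc2a2 and Iapp, were tested, and Ins1 had the highest mean, 49247 FPKM. They summed to 66884 to 79458 FPKM in uric acid libraries and 68185 to 82230 FPKM in untreated libraries, and 1 of the 8, Mafa, fell with uric acid (log2 fold change -0.46, edgeR adjusted p = 0.0129). The Mafa call was lost without uric acid library 1 (adjusted p = 0.0710) and without untreated library 1 (0.0564). At an unadjusted p under 0.05, 5 of the 8 markers were lower and 1 was higher, and DESeq2 called 3 lower and limma 1. Over all 12460 tested features, 3199 had an unadjusted p under 0.05 in either direction. The part of these marker values in the results was not tested. Of 10 markers of other islet and pancreas cells 6 were matched. Gcg, the glucagon gene, lay between 7.47 and 10.6 FPKM in uric acid libraries and between 5.46 and 10.2 FPKM in untreated libraries, and no other of the 6 passed 1.01 FPKM in any library. The 6 together summed to 8.76 to 11.3 FPKM in uric acid libraries and 6.46 to 11.5 FPKM in untreated libraries. In RNA from whole cultures, fewer cells that express a gene and less RNA per cell cannot be told apart.

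Of the 10 genes, the phosphatase genes Dusp1, Dusp4 and Dusp6 rose with uric acid, by 1.69-fold, 1.65-fold and 1.65-fold. No gene was called lower, and neither Dusp5, Dusp10 nor any Sprouty or Spred gene passed the test. The test was edgeR's quasi-likelihood test, with p-values adjusted by Benjamini and Hochberg's method over all 12460 tested features and a threshold of 0.05. Over all tested features, 7.98% were called in either direction, 4.99% higher and 2.99% lower with uric acid, against 3 of the 10 genes higher. At an unadjusted p under 0.05, 4 of the 10 were higher and 1 was lower, against 3199 of the 12460 tested features in either direction. DESeq2 and limma each called 3 higher and 0 lower. The median log2 fold change of the 10 genes was 0.20, against 0.0013 over all tested features. The genes were named with earlier results of these data in view, so these counts are a description.

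**Figure D1:**
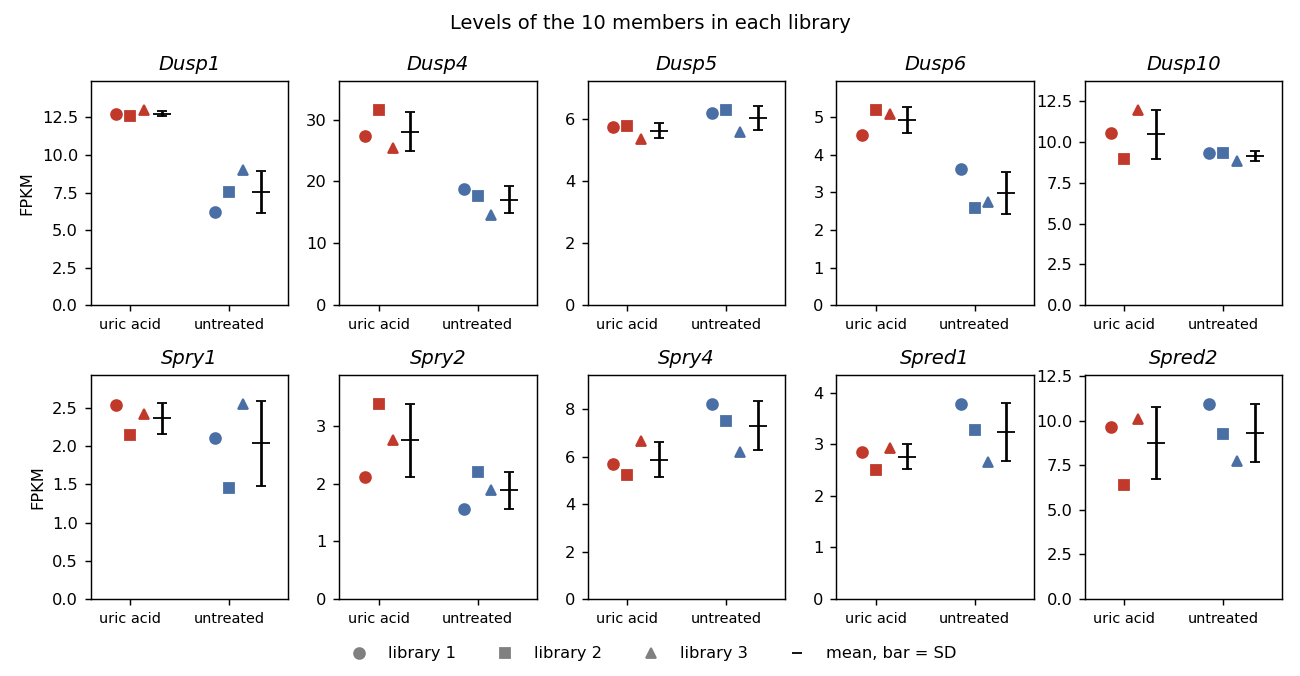
FPKM of each gene in the 3 uric acid libraries (red) and the 3 untreated libraries (blue), on linear axes from 0; marker shapes give the library number and black bars the mean and SD. Dusp1, Dusp4 and Dusp6 are the panels in which the uric acid libraries all lie above the untreated ones, at 12.6 to 13.0, 25.4 to 31.5 and 4.52 to 5.18 FPKM.

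Dusp1, also called MKP-1, is a nuclear phosphatase of early-response type that acts on JNK, p38 and ERK. It stood at 12.7, 12.6 and 13.0 FPKM in uric acid libraries 1, 2 and 3, against 6.18, 7.51 and 8.99 FPKM in untreated libraries 1, 2 and 3. The groups did not overlap, and the uric acid libraries lay close together while the untreated ones were spread out. The means were 12.8 ± 0.193 FPKM in uric acid libraries and 7.56 ± 1.40 FPKM in untreated libraries (SD, n = 3 each). The log2 fold change was 0.75 ± 0.14 (standard error; 95% interval 0.44 to 1.07; edgeR adjusted p = 0.0145). It was not called when uric acid library 1 was left out (adjusted p = 0.0624) or when untreated library 2 was left out (0.0782).

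Dusp4, also called MKP-2, is a nuclear phosphatase of ERK and JNK and had the highest level of the 10 genes in both groups. It stood at 27.3, 31.5 and 25.4 FPKM in uric acid libraries 1, 2 and 3, against 18.8, 17.6 and 14.6 FPKM in untreated libraries 1, 2 and 3. Every uric acid library lay above every untreated library. The means were 28.1 ± 3.11 FPKM in uric acid libraries and 17.0 ± 2.19 FPKM in untreated libraries (SD, n = 3 each), and the log2 fold change was 0.72 ± 0.11 (95% interval 0.48 to 0.97; edgeR adjusted p = 0.00625). Dusp4 was called in all 16 alternative fits, with adjusted p-values up to 0.0371, the highest of them without untreated library 2.

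Dusp6, also called MKP-3, is a cytoplasmic phosphatase selective for ERK and a much used readout of ERK activity. It stood at 4.52, 5.18 and 5.07 FPKM in uric acid libraries 1, 2 and 3, against 3.61, 2.57 and 2.74 FPKM in untreated libraries 1, 2 and 3. The groups did not overlap, with untreated library 1 nearest to the uric acid libraries. The log2 fold change was 0.73 ± 0.15 (95% interval 0.38 to 1.07; edgeR adjusted p = 0.0233). The call was lost without uric acid library 1 (adjusted p = 0.0589), without untreated library 2 (0.108) and without untreated library 3 (0.0758). The number of the 10 genes called was therefore 1 (Dusp4) without uric acid library 1 and without untreated library 2, 2 (Dusp1 and Dusp4) without untreated library 3, and 3 without any other library. Groups failed to overlap for 3 of the 10 genes, Dusp1, Dusp4 and Dusp6, where this held for 31% of all tested features in either direction and 16.8% in the higher direction.

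**Figure D2:**
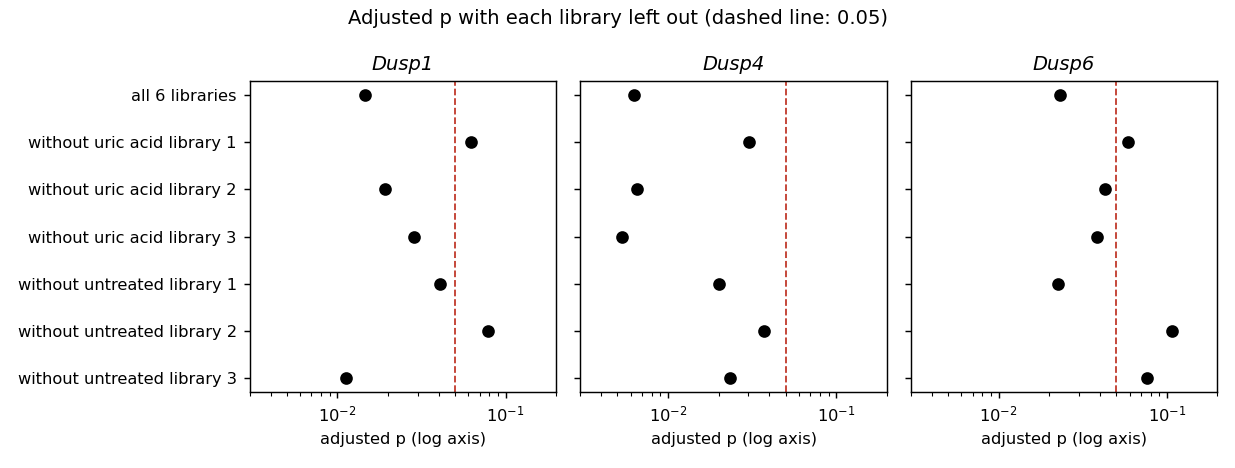
Adjusted p (log axis) of Dusp1, Dusp4 and Dusp6 with all 6 libraries and with each library left out in turn; the dashed line is the threshold of 0.05. Dusp4 stays left of the line in every fit, while Dusp1 crosses it in 2 fits and Dusp6 in 3.

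Dusp5 is a nuclear phosphatase selective for ERK, and so the nuclear counterpart of Dusp6. It stood at 5.76, 5.77 and 5.36 FPKM in uric acid libraries 1, 2 and 3, against 6.21, 6.29 and 5.58 FPKM in untreated libraries 1, 2 and 3. The groups overlapped, and the log2 fold change was -0.10 ± 0.11 (95% interval -0.34 to 0.14; edgeR adjusted p = 0.594). The upper end of this interval lies below the lower ends for Dusp1, Dusp4 and Dusp6, though the difference between genes was not itself tested. Dusp10, or MKP-5, prefers JNK and p38 to ERK. It stood at 10.5, 8.93 and 11.9 FPKM in uric acid libraries 1, 2 and 3, against 9.33, 9.32 and 8.80 FPKM in untreated libraries 1, 2 and 3, with overlapping groups and a wider spread among the uric acid libraries. Its log2 fold change was 0.19 ± 0.11 (95% interval -0.06 to 0.44; edgeR adjusted p = 0.311).

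Stretches of the RefSeq promoter table (build GRCr8) are shown for Dusp1 and Dusp6, which rose together, and for Dusp5, which did not pass the test, to set the letters before their starts side by side; 9 of the 10 genes were matched in that table, all but Dusp4. Capitals mark the core of the cAMP response element (TGACG on either strand) and the CArG box, the element bound by serum response factor. Each is written 5′ to 3′ on the gene's strand, which is the plus strand for all 3. For Dusp6 only the 148 bases before the gene's RefSeq interval are printed.
Dusp1, chr10:17184603-17184852: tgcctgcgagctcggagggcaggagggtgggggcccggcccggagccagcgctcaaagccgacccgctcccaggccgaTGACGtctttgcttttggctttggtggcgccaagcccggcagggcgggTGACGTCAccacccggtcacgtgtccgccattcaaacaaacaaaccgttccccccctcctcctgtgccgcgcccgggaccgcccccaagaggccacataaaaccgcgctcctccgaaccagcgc
Dusp5, chr1:262543524-262543773: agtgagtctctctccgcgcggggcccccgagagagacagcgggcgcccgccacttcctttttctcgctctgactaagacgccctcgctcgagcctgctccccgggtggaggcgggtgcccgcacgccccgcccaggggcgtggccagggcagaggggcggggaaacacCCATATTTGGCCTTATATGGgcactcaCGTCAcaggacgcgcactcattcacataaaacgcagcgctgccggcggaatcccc
Dusp6, chr7:35979354-35979501: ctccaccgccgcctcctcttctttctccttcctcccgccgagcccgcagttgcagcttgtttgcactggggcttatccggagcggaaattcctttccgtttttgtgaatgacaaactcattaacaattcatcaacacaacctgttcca

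In the 250 bases before its start, Dusp1 held the full cAMP response element TGACGTCA, from 124 to 117 bases before the start, and a further TGACG from 172 to 168 bases before it. The full element contains a TGACG on each strand. It was found in 1.59% of 33469 promoter windows of this length, and TGACG on either strand in 18.2%. Dusp5 held a pair of adjoining CArG boxes, from 82 to 73 and from 72 to 63 bases before the start, where 1.5% of windows held at least 1, and a TGACG on the minus strand from 55 to 51 bases before it. The 250-base window of Dusp6 held no match to any of the 6 motifs searched, of which the others were AP-1 (TGANTCA, in 6.34% of windows), an ETS motif (CCGGAA, 12.6%) and an ATF4 element (TGATGCAA, 0.693%). Both strands were searched for each. Among the other genes, Spry2 (at its outer RefSeq start) and Spred2 held a TGACG, and Spry2 and Spry4 held the ETS motif. The windows of Dusp10 and Spry1 lay wholly inside their RefSeq gene intervals, so the bases before those intervals were not searched. Of the Dusp6 window, 102 of the 250 bases lay inside its interval. A match is a match of letters, and no binding was measured in these cells.

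Sprouty genes encode inhibitors that receptors induce and that block the step from receptor to RAS and RAF. Spry2 stood at 2.12, 3.38 and 2.77 FPKM in uric acid libraries 1, 2 and 3, against 1.57, 2.21 and 1.89 FPKM in untreated libraries 1, 2 and 3. Uric acid library 1 lay below untreated library 2, so the groups overlapped. Its log2 fold change was 0.54 ± 0.22, and although the 95% interval of 0.05 to 1.04 excludes 0 it missed the threshold after adjustment (edgeR adjusted p = 0.162). Spry2 overlaps the listed interval of Mycbp2 on the same strand. Mycbp2 had means of 1.63 FPKM in uric acid and 1.65 FPKM in untreated libraries and a log2 fold change of -0.02. Spry4 stood at 5.71, 5.23 and 6.69 FPKM in uric acid libraries 1, 2 and 3, against 8.23, 7.50 and 6.19 FPKM in untreated libraries 1, 2 and 3. Untreated library 3 fell inside the uric acid range. The log2 fold change of Spry4 was -0.31 ± 0.12 (95% interval -0.59 to -0.04, edgeR adjusted p = 0.152). This interval also excludes 0, but Spry4 missed the threshold after adjustment. Spry1 ranged from 2.14 to 2.53 FPKM in uric acid libraries and from 1.45 to 2.55 FPKM in untreated libraries, with a log2 fold change of 0.21 ± 0.21 (edgeR adjusted p = 0.564).

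Spred proteins bring neurofibromin, which switches RAS off, to the membrane. Spred1 stood at 2.86, 2.49 and 2.93 FPKM in uric acid libraries 1, 2 and 3, against 3.78, 3.27 and 2.66 FPKM in untreated libraries 1, 2 and 3, with overlapping groups and a log2 fold change of -0.23 ± 0.17 (95% interval -0.62 to 0.17; edgeR adjusted p = 0.448). Spred2 stood at 9.68, 6.41 and 10.1 FPKM in uric acid libraries 1, 2 and 3, against 10.9, 9.27 and 7.72 FPKM in untreated libraries 1, 2 and 3. The spread within each group exceeded the difference between the means, and the log2 fold change was -0.09 ± 0.19 (95% interval -0.51 to 0.33; edgeR adjusted p = 0.795). The point estimates of the Sprouty and Spred genes thus lay on both sides of 0, and the interval of Spry2 reached past the fold changes of the called phosphatases.

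**Figure D3:**
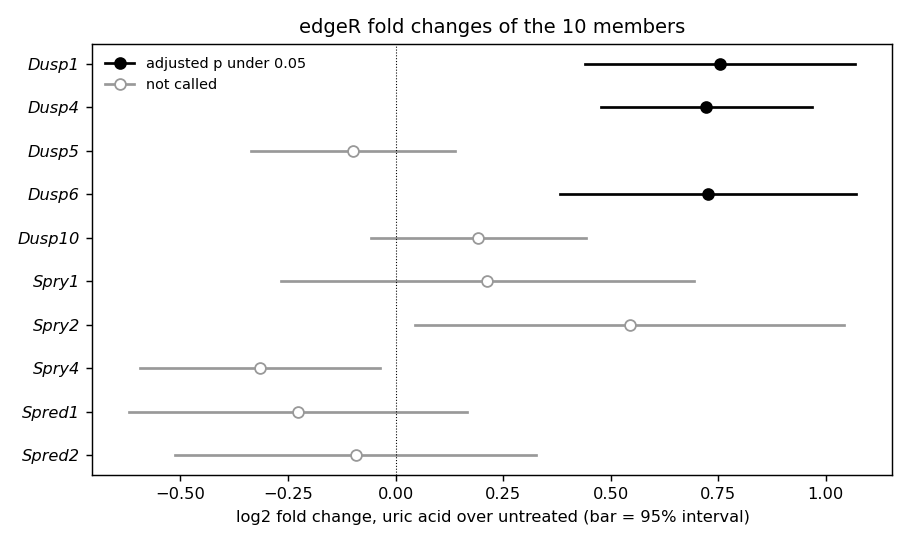
Log2 fold changes (uric acid over untreated) from edgeR with unadjusted 95% intervals; filled points passed the adjusted threshold of 0.05. Dusp1, Dusp4 and Dusp6 lie together at 0.75, 0.72 and 0.73, and the other genes lie between -0.31 and 0.54.

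On the FPKM scale, which allows genes to be compared, Dusp4 led in both groups and its range stood apart from that of the next gene. In uric acid libraries it was followed by Dusp1 (mean 12.8 FPKM), then Dusp10 (10.5), Spred2 (8.73), Spry4 (5.88), Dusp5 (5.63), Dusp6 (4.92), Spred1 (2.76), Spry2 (2.76) and Spry1 (2.36). In this order the neighbours Dusp10 and Spred2, Spred2 and Spry4, Spry4 and Dusp5, Spred1 and Spry2, and Spry2 and Spry1 overlapped in range. In untreated libraries Dusp1, at 7.56 FPKM, came behind Spred2 (9.31) and Dusp10 (9.15) as well as Dusp4, and its range overlapped that of Dusp10 above it and that of Spry4 below it. Dusp6, at 2.97 FPKM, came next below Spred1 in untreated libraries, with an overlapping range. The 5 phosphatase genes summed to 60.8, 64.0 and 60.8 FPKM in uric acid libraries 1, 2 and 3, against 44.1, 43.3 and 40.7 FPKM in untreated libraries 1, 2 and 3. The 5 Sprouty and Spred genes summed to 22.9, 19.7 and 24.9 FPKM in uric acid libraries 1, 2 and 3, against 26.6, 23.7 and 21.0 FPKM in untreated libraries 1, 2 and 3. The phosphatase sums did not overlap between groups and the Sprouty and Spred sums did. The called genes Dusp1, Dusp4 and Dusp6 made up a mean of 45.7 of 61.8 FPKM in uric acid libraries. In untreated libraries they made up 27.5 of 42.7 FPKM. Dusp5 and Dusp10 each overlapped between groups, so the sums do not describe the phosphatases as a family. Of single tested features, 31% did not overlap in either direction. Dusp4 alone made up 29.7 to 37.7% of the summed FPKM of the 10 genes in uric acid libraries and 23.6 to 26.6% in untreated libraries.

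The genes did not all vary together within a group. Uric acid library 2, the library with the fewest counts, held the highest value of its group for 4 genes (Dusp4, Dusp5, Dusp6 and Spry2) and the lowest for the other 6. Untreated library 3 held the highest value of its group for Dusp1 and Spry1 and the lowest for 6 genes (Dusp4, Dusp5, Dusp10, Spry4, Spred1 and Spred2). Dusp1 and Dusp4, both higher with uric acid, thus ran in opposite order among the untreated libraries. Dusp10, Spry4, Spred1 and Spred2, by contrast, shared an order in each group. From high to low, it was uric acid libraries 3, 1 and 2 and untreated libraries 1, 2 and 3. The part of depth in this pattern was not tested. The tested features with a settled symbol whose centred profile of log2(FPKM + 1) over the 6 libraries was nearest to that of Dusp1, the called gene with the largest change, were Cd83, Nat8b and Slc18a1. Their mean absolute differences from Dusp1 were 0.045, 0.061 and 0.069 on the log2 scale. Cd83, which encodes a surface glycoprotein best known from dendritic cells, stood at 9.66, 9.16 and 9.70 FPKM in uric acid libraries 1, 2 and 3, against 4.65, 6.05 and 6.33 FPKM in untreated libraries 1, 2 and 3.

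A list of 8 further genes held other MAP kinase phosphatases and the remaining Sprouty and Spred genes. Of these 8, 6 were tested and edgeR called 0, while 2 were lower at an unadjusted p under 0.05 (Dusp3 and Dusp7); DESeq2 called 1 lower and limma called 0. Dusp8, a phosphatase of JNK and p38, had a higher level than any of the 10 genes, with means of 36.6 ± 4.84 FPKM in uric acid libraries and 36.4 ± 2.09 FPKM in untreated libraries and a log2 fold change of 0.01 (95% interval -0.22 to 0.23). Dusp3, which acts on ERK and JNK, stood at 16.7 ± 1.82 FPKM in uric acid libraries and 20.3 ± 0.699 FPKM in untreated libraries (log2 fold change -0.28, edgeR adjusted p = 0.0726), and Dusp7, a cytoplasmic ERK phosphatase, at 6.95 ± 0.879 FPKM in uric acid libraries and 8.37 ± 0.507 FPKM in untreated libraries (-0.27, 0.167). Dusp16, Spry3 and Spred3 had log2 fold changes of 0.32, 0.42 and 0.10. Dusp2 and Dusp9, at no more than 0.0805 FPKM in any library, were too low to test.

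Mapk3, which encodes the kinase ERK1, was not called. It had means of 88.3 ± 3.58 FPKM in uric acid libraries and 88.7 ± 4.75 FPKM in untreated libraries (log2 fold change -0.01, 95% interval -0.16 to 0.15; edgeR adjusted p = 0.958). Of 19 tested genes of the RAS-RAF-MEK-ERK cascade 1 rose and 4 fell, with a median log2 fold change of -0.06. Mknk1, a kinase that ERK activates and that phosphorylates the translation factor eIF4E, rose to 16.0 ± 3.35 FPKM in uric acid libraries, against 9.66 ± 0.348 FPKM in untreated libraries (log2 fold change 0.73, edgeR adjusted p = 0.0160). Its relative Mknk2 fell by 0.32 (0.0461). Shoc2, a scaffold that helps activate RAF, fell to 19.8 ± 3.27 FPKM with uric acid, against 28.4 ± 1.57 FPKM untreated (-0.52, 0.0256), and the RAS gene Hras fell to 28.9 ± 3.27 FPKM, against 38.5 ± 1.40 FPKM untreated (-0.41, 0.0318). None of these 4 named genes was called in all 6 fits with a library left out: the highest adjusted p was 0.0814 for Mknk1, 0.103 for Shoc2, 0.113 for Hras and 0.193 for Mknk2, and Mknk2 was called in 0 of the 6.

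Among 14 tested receptors and adaptors 2 rose and none fell in edgeR, where 3 were lower at an unadjusted p under 0.05 and DESeq2 called 3 lower. Fgfr4, a receptor for FGF19 and its rodent counterpart FGF15, rose to 47.7 ± 4.89 FPKM with uric acid, against 35.1 ± 3.43 FPKM untreated (log2 fold change 0.44, edgeR adjusted p = 0.0317). Met, the receptor of hepatocyte growth factor, rose to 4.26 ± 0.153 FPKM with uric acid, against 3.15 ± 0.240 FPKM untreated (0.43, 0.0317). Fgfr4 was called in 3 and Met in 1 of the 6 fits with a library left out, with adjusted p-values up to 0.139 and 0.152. Of 16 tested brakes on RAS and ERK outside the phosphatase, Sprouty and Spred families, edgeR called 0, with 2 higher and 4 lower at an unadjusted p under 0.05, and DESeq2 called 2 higher and 2 lower. The median of these 16 log2 fold changes was -0.10.

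Transcripts listed as ERK-response genes moved in both directions, and whether ERK drives each of them in these cells was not tested. Of 28 tested 3 rose and 2 fell, with a median log2 fold change of 0.16. Myc rose to 6.28 ± 3.13 FPKM in uric acid libraries, against 1.27 ± 0.260 FPKM in untreated libraries (2.29, edgeR adjusted p = 0.00537), and Maff, a small MAF transcription factor, rose to 9.67 ± 1.46 FPKM, against 4.78 ± 0.552 FPKM untreated (1.02, 0.00553). Klf2, a zinc-finger factor, fell to 6.76 ± 0.716 FPKM with uric acid, against 16.5 ± 3.71 FPKM untreated (-1.28, 0.00390). Jun, a subunit of AP-1, rose by 0.57 (0.0276), and the remaining call, named after its value was seen, was the immediate-early gene Ier3, which fell by 0.65 (0.0295). Myc, Maff and Klf2 were called in all 6 fits with a library left out, Jun in 1 (adjusted p up to 0.0966) and Ier3 in 0 (up to 0.139). Egr1, Fos, Etv4 and Etv5 did not pass. Egr1, an immediate-early transcription factor gene, averaged 7.18 ± 0.592 FPKM in uric acid libraries and 6.34 ± 1.03 FPKM in untreated libraries, with overlapping groups (log2 fold change 0.18, edgeR adjusted p = 0.417). Fos stood at 3.24, 2.66 and 2.42 FPKM in uric acid libraries 1, 2 and 3, against 2.80, 1.86 and 1.79 FPKM in untreated libraries 1, 2 and 3 (0.37, 0.326). Etv4 and Etv5, ETS factors that, like the Sprouty genes, follow FGF signalling, had log2 fold changes of -0.03 (0.912) and 0.25 (0.297).

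**Figure D4:**
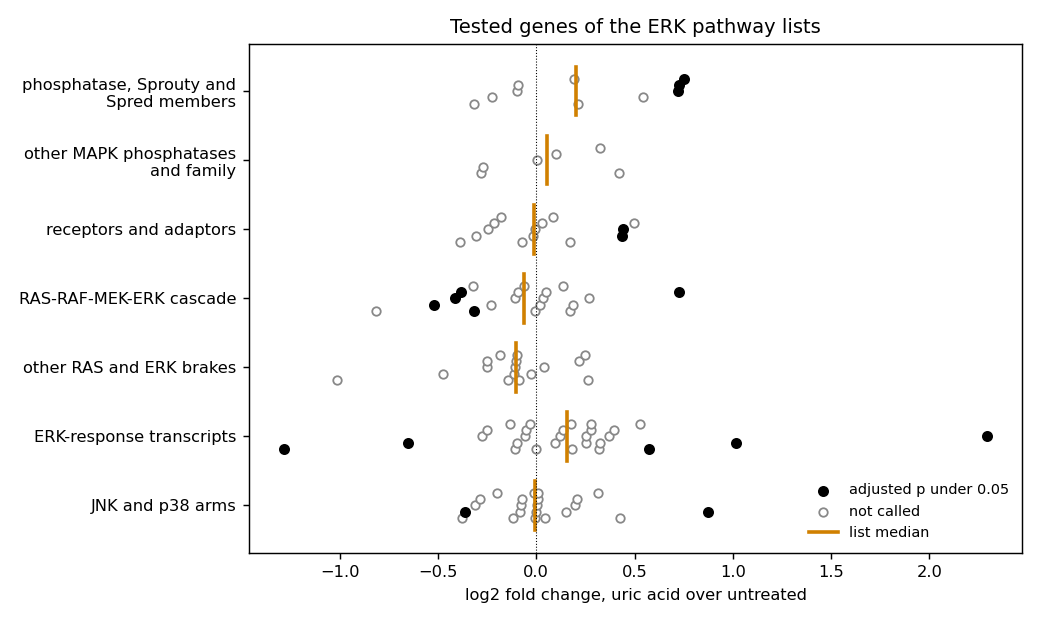
Log2 fold changes (uric acid over untreated) of the tested genes of each list, filled where the adjusted p was under 0.05, with the list median as an orange bar; vertical offsets within a list only separate points. The medians run from -0.10 to 0.20, and the largest called change is Myc at 2.29.

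In the JNK and p38 arms, 1 of 22 tested genes rose and 1 fell in edgeR, where DESeq2 called 4 higher and 1 lower. Dusp1 and Dusp10 also act on these arms, and Dusp4 acts on JNK. Gadd45a, a stress-induced activator of the p38 kinase cascade, rose to 42.1 ± 6.63 FPKM with uric acid, against 23.0 ± 2.80 FPKM untreated (log2 fold change 0.87, edgeR adjusted p = 0.00654), and was called in all 6 fits with a library left out. Map3k11, a kinase that activates JNK signalling, fell to 25.3 ± 0.443 FPKM with uric acid, against 32.5 ± 0.236 FPKM untreated (-0.36, 0.00828), a call lost without uric acid library 1 (adjusted p = 0.0532) and without untreated library 2 (0.0546).

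The table gives the position of each gene in a genome build that the sources used here do not name. Dusp1 (ENSRNOG00000003977) lies on chromosome 10 from 16970626 to 16973418, Dusp4 (ENSRNOG00000011921) on chromosome 16 from 61078175 to 61091169, and Dusp6 (ENSRNOG00000023896) on chromosome 7 from 41475163 to 41479392. Dusp5 (ENSRNOG00000014061) lies on chromosome 1 from 274245184 to 274258595, and Dusp10 (ENSRNOG00000004003) on chromosome 13 from 104284660 to 104321455. The Sprouty and Spred genes lie on 5 further chromosomes, so no pair of the 10 genes is neighbouring. Apart from Spry2, none of the 10 overlaps another listed feature.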

How the data were processed

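Polyadenylated RNA of 6 INS-1E libraries was sequenced as pairs of 150-base reads from dUTP-marked cDNA, per the labels' protocols. Tools listed in the submitters' processing notes, with no role or order, are StringTie 1.3.4d, HISAT2 2.0.4, edgeR, DESeq2 and cutadapt 1.9; genome build and strand setting are not given in the sources used here. Per the file headers, the deposited table holds FPKM, scaled by the authors to transcript length and library total, and a count column for each library. The deposited count values were treated as estimated counts, because their scale per read pair is not stated (4 was listed 1829 times and 5 only 891 times); counts divided by 4 were an alternative.

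The 12460 of 19289 features that averaged 1 FPKM or more were tested with edgeR 4.0.16 in R 4.3.3 (quasi-likelihood F test, TMM scaling, two-sided, Benjamini-Hochberg over all tested features, threshold 0.05). All values are means ± SD of FPKM, and fold changes and standard errors come from that fit; 95% intervals are unadjusted. The common coefficient of biological variation was 0.127 and the median standard error 0.113 (log2). An exact permutation test of 3 libraries against 3 cannot go below p = 0.1 and was not used. Tested on simulated data for this comparison over 12460 genes, the fit recovered 56.7% of genes changed by 0.5 on the log2 scale, 92.5% at 1 and 98.5% at 2, with 4 false calls. The simulation changed 200 genes, gave genes of like level the same variation and held no difference between libraries beyond depth. Its rates may therefore not hold for the real libraries.

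The members and the 6 pathway lists were chosen with earlier results of these data known. Named genes were all members, up to 4 called genes of each list with the smallest p, Mapk3, Egr1, Fos, Etv4 and Etv5, and the 3 profiles nearest to the called member with the largest change. Some genes that this rule names or the lists count are not reported here. Of the listed genes, 2 ERK-response and 4 marker genes were not matched. Promoter letters come from RefSeq (GRCr8). Alternatives were limma 3.58.1 on log2(FPKM + 1) and log2(FPKM + 0.1), DESeq2 1.42.0, 3 other scalings, 2 other filters, a replicate block, counts divided by 4, FPKM rescaled by TMM, and each library left out.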

Additional observations from a re-analysis of the deposited data

How the results depend on the processing

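The 10 genes kept their direction in every alternative that tested them, except Spred2, whose log2 fold change was 0.083 without uric acid library 2 and 0.035 without untreated library 1 (range with a library left out -0.21 to 0.083). With a library left out, the log2 fold change ranged from 0.62 to 0.91 for Dusp1 and from 0.63 to 0.89 for Dusp6, and 1 to 3 of the 10 genes were higher. Such fits have fewer samples, and over all tested features they gave 165 to 707 higher and 66 to 466 lower, against 622 and 372 with all libraries. The pairing of replicate numbers was checked: deviations of same-numbered libraries correlated at 0.068, -0.049 and -0.19, and not every library correlated best with its own number. With 3 libraries per group this check cannot decide whether same-numbered libraries were handled together, which the labels do not state. With the replicate block 223 features were higher and 99 lower, Dusp1 and Dusp4 were called (2 of the 10), and Dusp6 was not (log2 fold change 0.74, adjusted p = 0.0767). With the block, receptors gave 0 higher, the cascade 0 lower, response transcripts 1 lower and the JNK and p38 arms 0 lower. DESeq2 gave 972 higher and 793 lower, and for the lists 1 lower (other phosphatases and family), 3 lower (receptors), 2 higher and 2 lower (other brakes) and 4 higher (JNK and p38). limma with either pseudocount gave 1 higher for receptors, 2 lower for the cascade and 2 higher for JNK and p38. A minimum mean of 5 FPKM tested 6 of the 10 genes, of which Dusp1 and Dusp4 (2) were higher, and gave 1 higher for receptors, 2 lower for the cascade, 2 higher for other brakes and 2 higher for JNK and p38; no filter and library totals only each gave 2 lower for the cascade. With a library left out, the ranges were 0 to 2 higher (receptors), 0 to 1 higher and 0 to 3 lower (cascade), 0 to 1 lower (other brakes), 1 lower throughout (response transcripts) and 0 to 3 lower (JNK and p38). TMM-rescaled FPKM moved no level of the 10 genes by as much as 1 SD. Where a call was lost, the cause was not tested. Depth per library differed, and the low-level genes Spry1 and Spry2 had the largest standard errors of the 10 genes (0.21 and 0.22).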

Other observations

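Outside the lists, 14 further features carry a Dusp name, most of them atypical phosphatases that lack the MAP kinase binding domain, and 10 were tested. They were looked at after their values were seen. EdgeR called 3 higher with uric acid and 1 lower, against 4.99% higher and 2.99% lower over all tested features. The median log2 fold change of the 10 was 0.30. Dusp18 stood at 7.12, 6.97 and 8.33 FPKM in uric acid libraries 1, 2 and 3, against 4.77, 5.26 and 4.54 FPKM in untreated libraries 1, 2 and 3 (log2 fold change 0.62 ± 0.11, edgeR adjusted p = 0.0109), and was not called once untreated library 1 was left out (0.0522). Dusp14 stood at 3.33, 2.70 and 2.39 FPKM in uric acid libraries, against 1.48, 1.61 and 1.73 FPKM in untreated libraries (0.80 ± 0.19, adjusted p = 0.0372). Dusp23 averaged 22.1 ± 2.90 FPKM in uric acid libraries and 15.5 ± 1.01 FPKM in untreated libraries (0.51 ± 0.13, adjusted p = 0.0449). Dusp11, which removes phosphates from RNA rather than from kinases, fell to 9.75 ± 0.916 FPKM with uric acid, against 14.3 ± 1.05 FPKM untreated (-0.56 ± 0.12, adjusted p = 0.0224). Dusp14 was called in 1, Dusp23 in 1 and Dusp11 in 2 of the 6 fits with a library left out, with adjusted p-values up to 0.142, 0.183 and 0.115.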
